A study of Homo sapiens with 20 samples.

Results

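The miR-181 family was described here across all 8 groups of a small RNA sequencing study of DROSHA in human cells. Its members were 7 mature microRNAs (miRNAs) found by name, out of 2588 in each table: miR-181a-5p, miR-181a-3p, miR-181a-2-3p, miR-181b-5p, miR-181c-5p, miR-181c-3p and miR-181d-5p. The study held 20 libraries. HCT116 is a human colon cancer line and HEK293E a human embryonic kidney line, and in cells of both the gene for DROSHA had been knocked out. HCT116 knockout cells rescued with full-length DROSHA, HCT116 knockout cells rescued with DROSHA-p140, and the same 2 rescues of HEK293E knockout cells gave 3 libraries each. HCT116 knockout cells expressing GFP gave 1 library, and untreated wild-type HCT116 cells gave 1. Wild-type HCT116 cells kept for 72 hr with 9.1% or 0.1% fetal bovine serum (FBS) gave 3 libraries per dose. DROSHA-p140 is a shorter form of the protein, and the series is titled after the proline-rich disordered domain of DROSHA and intronic miRNAs. The labels do not say how many knockout clones were used.

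DROSHA cuts the hairpin of a miRNA out of its primary transcript in the nucleus, and DICER then frees a duplex whose 5p or 3p strand is kept in an Argonaute protein. The seed, a short stretch near the 5′ end of the kept strand, pairs with target messenger RNAs, so the 5p strands of miR-181a, b, c and d can address largely the same targets. The family is known for tuning antigen receptor signalling in lymphocytes and is also expressed in many epithelial and tumour cells. Its hairpins are processed in pairs from host transcripts, which lets one ask whether hairpins of 1 transcript move together.

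The sequences below show how little separates the members, which bears on each comparison between them. They are from RefSeq (GRCh38.p14), 5′ to 3′, with the seed (bases 2 to 8) in capitals.
miR-181a-5p: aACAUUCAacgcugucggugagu
miR-181b-5p: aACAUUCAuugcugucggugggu
miR-181c-5p: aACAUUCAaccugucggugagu
miR-181d-5p: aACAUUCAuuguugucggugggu
miR-181a-3p: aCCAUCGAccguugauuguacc
miR-181a-2-3p: aCCACUGAccguugacuguacc
miR-181c-3p: aACCAUCGaccguugaguggac
The 4 members of the 5p arm shared 1 seed, which 5 of the 2370 mature miRNAs in the RefSeq table carried. The fifth was miR-4262, which had 0 reads in all 20 libraries. Counted from 1 at the 5′ end of the first-named member, miR-181a-5p and miR-181b-5p differed at 3 positions, A9U, C10U and A21G. miR-181b-5p and miR-181d-5p differed by C12U alone. miR-181c-5p differed from miR-181a-5p by a deletion of 1 base at position 11. On the 3p arm miR-181a-3p and miR-181a-2-3p differed by U5C, C6U and U16C, 2 of them in the seed, and miR-181c-3p had a seed of its own.

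The family came from 6 hairpins at 3 loci, all in introns of transcripts on the same strand in GENCODE 29. On chromosome 1 (minus strand), MIR181A1 (198859044 to 198859153) and MIR181B1 (198858873 to 198858982) lay 61 bases apart in MIR181A1HG, a long noncoding RNA. On chromosome 9 (plus strand), MIR181A2 (124692442 to 124692551) and MIR181B2 (124693710 to 124693798) lay 1158 bases apart in MIR181A2HG, inside an intron of NR6A1 on the opposite strand. On chromosome 19 (plus strand), MIR181C (13874699 to 13874808) and MIR181D (13874875 to 13875011) lay 66 bases apart in an intron of NANOS3 transcripts. All 12 annotated strands of these hairpins had the same coordinates in the deposited tables and in RefSeq. The mature sequence of miR-181a-5p is the same from chromosomes 1 and 9, as is that of miR-181b-5p, so reads cannot tell their loci apart, whereas miR-181a-3p marks chromosome 1 and miR-181a-2-3p chromosome 9. The hairpins of the chromosome 1 pair are shown because miR-181a-5p and miR-181b-5p took different courses in some of the comparisons. Those courses cannot be assigned to chromosome 1 or 9. The mature strands are in capitals (GRCh38.p14, minus strand).
MIR181A1: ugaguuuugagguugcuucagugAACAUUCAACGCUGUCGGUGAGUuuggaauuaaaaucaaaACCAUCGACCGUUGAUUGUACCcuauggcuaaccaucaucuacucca
MIR181B1: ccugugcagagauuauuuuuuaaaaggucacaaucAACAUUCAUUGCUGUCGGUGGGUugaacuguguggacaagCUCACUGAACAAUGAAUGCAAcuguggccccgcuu
The bases UGU, a motif of hairpin loops, stood between the arms of MIR181B1 and MIR181D and not of MIR181A1, MIR181A2 and MIR181C. MIR181B2 was not searched, because the RefSeq table held no hairpin sequence for it. UGU stood there in 33.7% of 739 hairpins for which RefSeq gives both arms. The motif CNNC (N is any base) in bases 16 to 21 after the 3p arm was found in MIR181A1 and MIR181D but not in MIR181C, against 50.7% of 75 hairpins with enough sequence there. Only the transcript strand was searched, and a match is a description of these letters and not a site.

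Reads assigned to miRNAs numbered 38288 in the GFP knockout library, 135084 to 873718 in the rescue libraries and untreated wild type, and 1745624 to 2822317 in the serum libraries. Levels are given as CPM, counts scaled to a common total of miRNA reads. Replicates were not identical, and replicate 3 stood apart in the HCT116 rescue groups and in both serum groups. DROSHA-independent miRNAs (22 strands of mirtrons, miR-320a and miR-484) took 69.7% of reads in the GFP knockout library and 1.27% in untreated wild type, which goes with the knockout label. Most of these reads were miR-320a, 23416 of 26699 in the knockout library and 10185 of 10844 in untreated wild type. Of the 22 strands, 11 had no reads in untreated wild type. In the HCT116 rescues the share of the list was 2.74% to 4.98% for full-length DROSHA and 7.05% to 21.04% for p140. In the HEK293E rescues it was 10.6% to 12.3% and 15.5% to 20.0%. The epithelial and intestinal markers, 8 miRNAs, summed to between 40218 and 52829 CPM in all 7 wild-type HCT116 libraries and to 4989 CPM in the GFP knockout library, but to between 322 and 562 CPM in the 6 HCT116 rescue libraries, close to the 470 to 682 CPM of HEK293E. miR-200c-3p, an epithelial miRNA, averaged 19727 CPM in 9.1% FBS and 180 CPM with full-length rescue. The libraries labelled as HCT116 rescues thus did not show the wild-type level of miR-200c-3p, miR-141-3p, miR-200a-3p, miR-200b-3p and miR-429. The intestinal markers stood otherwise. miR-192-5p averaged 51.2 CPM with full-length rescue and 54.2 in 9.1% FBS, miR-194-5p 164 and 116, and miR-215-5p 1.22 and 1.26. With p140 miR-192-5p averaged 13.7 CPM, miR-194-5p 139 and miR-215-5p 0. Nor were the HCT116 rescues alike to HEK293E in every marker. miR-155-5p was at 0 in all 6 of them and at 104 to 211 CPM in HEK293E with p140. Among markers of other cells, the 7 of blood summed to at most 152 CPM in any HCT116 library and the 3 of muscle to at most 3.43 CPM, while the 3 of neurons reached 4936 CPM. The labels do not say whether replicates were separate cultures, so p-values reflect no more than the variation among these libraries, which may be technical.

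miR-181a-5p, the most abundant member, had 110243 reads over all libraries, against 38063 for miR-181b-5p, 3932 for miR-181a-3p, 2437 for miR-181c-5p, 1374 for miR-181d-5p, 671 for miR-181a-2-3p and 173 for miR-181c-3p. The 4 members of the 5p arm together made up 0.548% to 0.570% of all reads in 9.1% FBS, and 0.708% to 0.781% in 0.1% FBS. In the rescues with full-length DROSHA they made up 1.04% to 1.25% (HCT116) and 1.39% to 1.53% (HEK293E), and in those with p140 1.40% to 1.55% and 1.48% to 1.74%.

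By CPM, miR-181a-5p was highest in HCT116 with p140, at 12221 ± 1064 (SD, n = 3). HEK293E with p140 followed at 9416 ± 589, HCT116 with full-length DROSHA at 8149 ± 1053 and HEK293E with full-length DROSHA at 7941 ± 521. Wild-type HCT116 stood at 6026 ± 328 in 0.1% FBS, 4903 untreated and 3797 ± 80.9 in 9.1% FBS, and the GFP knockout library at 914. HEK293E with p140 overlapped HCT116 with full-length DROSHA, which overlapped HEK293E with full-length DROSHA. HCT116 with p140 stood above all of these without overlap, and both serum groups stood below them and apart from each other. miR-181b-5p had another order. It was highest in HEK293E, at 5936 ± 558 CPM with p140 and 5563 ± 363 with full-length DROSHA, whose ranges overlapped. Next came 3303 ± 96.7 in HCT116 with full-length DROSHA, 2122 ± 386 with p140, 1705 ± 45.2 in 9.1% FBS, 1396 in untreated wild type, 1362 ± 83.1 in 0.1% FBS and 340 CPM in the GFP knockout library. Untreated wild type lay within the range of the 0.1% FBS libraries. For both members the order between the lines depends on the scale, as given below.

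The chromosome 19 members were the scarcest of the 5p arm in both lines. miR-181c-5p stood at 161 ± 34.7 CPM with full-length DROSHA, 136 ± 16.3 with p140, 68.96 ± 15.4 in 9.1% FBS and 106 ± 8.87 in 0.1% FBS, against 480 ± 56.4 and 461 ± 113 in HEK293E with full-length DROSHA and p140. miR-181d-5p stood at 82.8 ± 12.3, 56.4 ± 16.5, 35.1 ± 10.1 and 25.6 ± 4.38 CPM in the same 4 HCT116 groups, and at 528 ± 17.6 and 451 ± 133 in HEK293E. Untreated wild type held 158 CPM of miR-181c-5p and 78.2 of miR-181d-5p. By CPM, HEK293E thus stood above each HCT116 group for both, with no overlap of the libraries. On the scale of the test between the lines, given below, miR-181c-5p overlapped with full-length DROSHA. There HCT116 reached 294 and HEK293E began at 285. The passenger strand miR-181c-3p did not pass 16.3 CPM in any HCT116 library and lay between 22.2 and 41.7 CPM in HEK293E. miR-181a-3p ranged from 26.1 CPM in the GFP knockout library to 553 in HCT116 with p140, and miR-181a-2-3p from 0 to 85.9 CPM in HEK293E with full-length DROSHA.

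**Figure D1:**
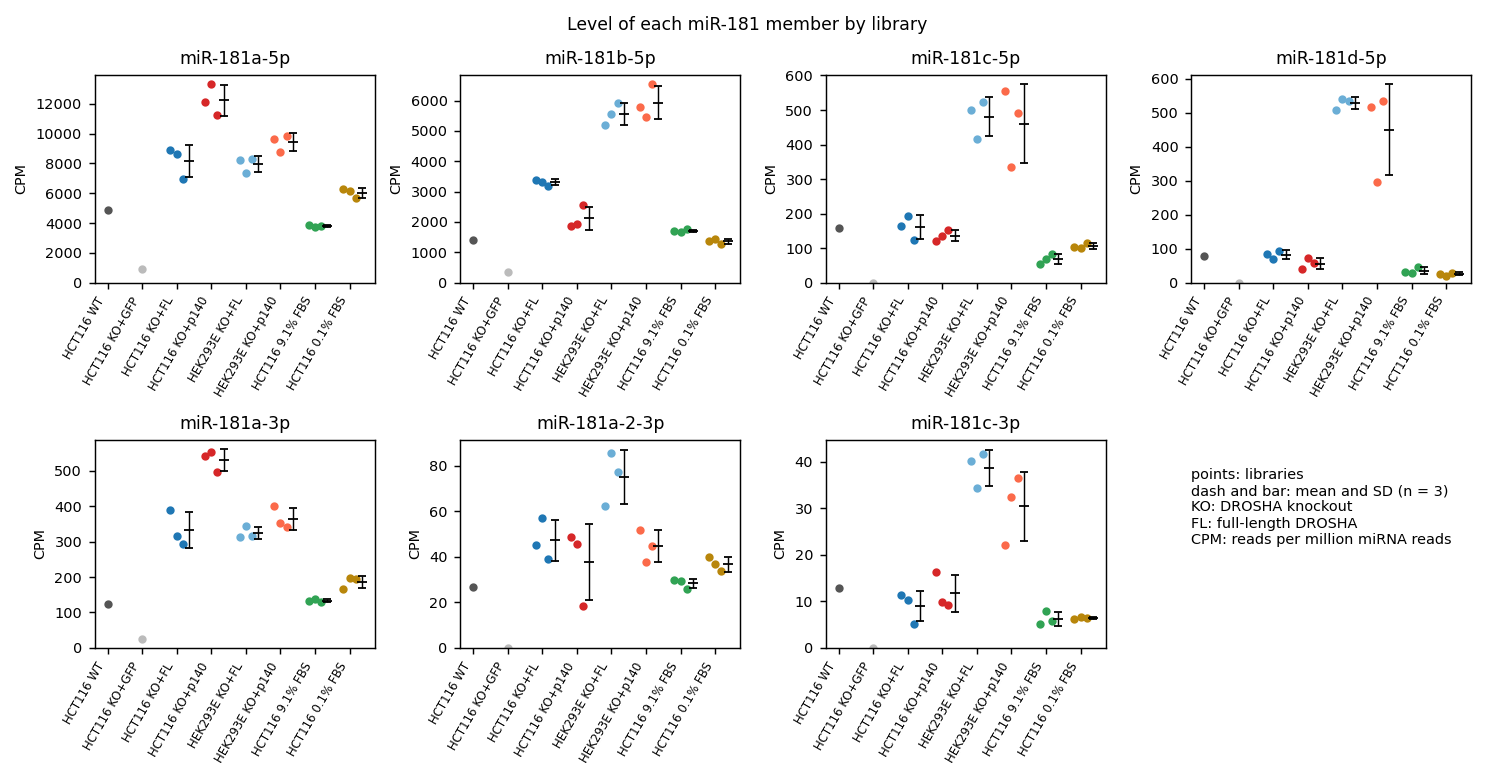
Level of each of the 7 members in CPM (vertical axis, from 0) in the 8 groups (horizontal axis); points are libraries, the dash and bar the mean and SD of 3. miR-181a-5p is highest in HCT116 with p140, whereas miR-181b-5p is lower there than with full-length DROSHA, and miR-181c-5p and miR-181d-5p are highest in HEK293E.

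Within the summed 5p reads of the family, miR-181a-5p took 69.5% ± 2.19 (SD, n = 3) in the full-length HCT116 libraries and 84.0% ± 3.33 in those with p140. Its share was 67.7% ± 0.828 in 9.1% FBS and 80.1% ± 0.473 in 0.1% FBS. Both members made up nearly all of the sum in HCT116, so the share of miR-181b-5p had to fall as that of miR-181a-5p rose. It went from 28.4% to 14.7% with p140 and from 30.4% to 18.1% in 0.1% FBS. In HEK293E the shares of miR-181a-5p were 54.7% ± 2.02 and 58.0% ± 1.28, and those of miR-181b-5p 38.3% ± 2.06 and 36.5% ± 1.26. miR-181d-5p took 3.65% ± 0.223 of the family in HEK293E with full-length DROSHA, and at most 1.20% in any HCT116 library. These shares do not depend on how libraries are scaled, and they were described without a test.

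**Figure D2:**
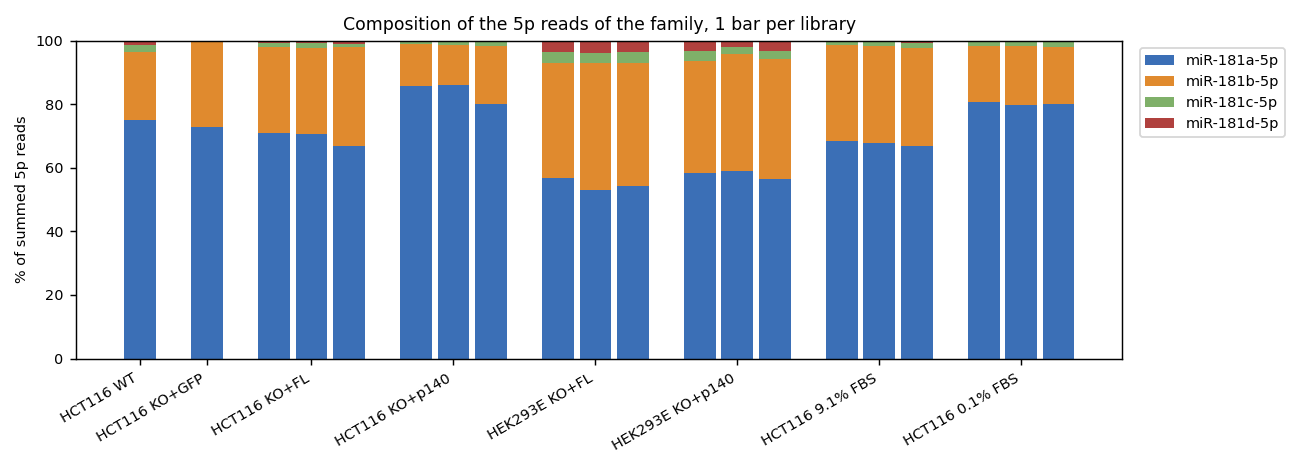
Share of each 5p member in the summed 5p reads of the family (vertical axis, %), 1 bar per library, grouped on the horizontal axis. miR-181a-5p fills 80.2% to 86.2% of the bars of HCT116 with p140 and 79.7% to 80.7% in 0.1% FBS, against 67.0% to 70.9% and 66.9% to 68.6% in their references.

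Loss of DROSHA was compared in 1 library of each kind, so there was no replicate check. miR-181a-5p had 4200 reads in untreated wild type (4903 CPM, exact 95% Poisson interval 4756 to 5053) and 35 reads in the GFP knockout library (914 CPM, 637 to 1271). That is 5.36-fold lower in the knockout (interval of the ratio 3.85 to 7.71). miR-181b-5p had 1196 reads (1396 CPM) and 13 reads (340 CPM), 4.11-fold lower (2.40 to 7.75). miR-181a-3p had 105 reads and 1 read, a ratio of 4.69 in CPM with an interval of 0.824 to 187. miR-181c-5p had 135 reads and 0 reads, at least 2.01-fold lower when the knockout library is set to 3 reads (78.4 CPM, the one-sided limit used here for a count of 0). The exact two-sided 95% interval of the ratio, as given for the members above, has its lower limit at 1.61-fold. miR-181a-2-3p, miR-181c-3p and miR-181d-5p were at 0 in the knockout library and had 23, 11 and 67 reads in wild type. In CPM these were 26.8, 12.8 and 78.2, under the 78.4 CPM of 3 reads in the knockout library, so no fold is given. CPM in the knockout are shares of a library filled with DROSHA-independent miRNAs. Scaled to those miRNAs instead, miR-181a-5p was 295-fold (212 to 425) and miR-181b-5p 226.5-fold (132 to 427) lower in the knockout. Most of the reads that set this scale were those of miR-320a. All these intervals cover counting error only, and without molecular identifiers a read need not be a separate molecule.

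The first question of the series, p140 against full-length DROSHA, split the 2 abundant members in HCT116. Values are CPM scaled by the trimmed mean of M values (TMM), which matches libraries on the bulk of their miRNAs. miR-181b-5p stood at 3394, 3418 and 3434 with full-length DROSHA and at 1880, 1977 and 2312 with p140. The 2 groups did not overlap, and all 3 p140 libraries were low. It fell by 0.73 on the log2 scale (SE 0.13, adjusted p = 0.0036, edgeR's quasi-likelihood F test with Benjamini-Hochberg adjustment over 446 miRNAs), that is 1.66-fold. miR-181a-5p went the other way, from 8886, 8882 and 7450 to 12218, 13615 and 10111, again without overlap. It rose by 0.51 (SE 0.15, adjusted p = 0.017). miR-181a-3p, the passenger strand of the chromosome 1 hairpin, rose with it by 0.60 (SE 0.19, adjusted p = 0.028), from 313 to 389 up to 446 to 564.

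Of 7 members 6 passed the filter on low counts in this comparison, and miR-181c-3p, with 3 to 9 reads a library, did not. In all, 2 of the 6 were called higher, against a background of 28.5% of all miRNAs tested, and 1 lower, against 31.2%. Separate groups were seen for 3 of the 6, against 64.8% of all miRNAs. The median log2 fold change was -0.37 over the 6 members and -0.11 over all miRNAs tested. miR-181d-5p (-0.64, SE 0.32, adjusted p = 0.12), miR-181a-2-3p (-0.40, SE 0.42, adjusted p = 0.43) and miR-181c-5p (-0.33, SE 0.24, adjusted p = 0.27) were not called, each with overlapping groups. miR-181b-3p, the passenger strand of MIR181B1 and not a listed member, fell by 1.51 (SE 0.41, adjusted p = 0.015), on 20 to 27 reads a library in the full-length group and 2 to 4 in the p140 group. It was not called with p140 in HEK293E (0.16, adjusted p = 0.83) or in 0.1% FBS (-0.49, adjusted p = 0.16). Nor was it called for the difference of the p140 effect between lines (1.62, adjusted p = 0.16) or between the lines (-0.62, adjusted p = 0.11). Full-length rescue against wild type called it higher (0.77, adjusted p = 0.049).

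These calls differed in how firmly they stood. The fall of miR-181b-5p was called in each alternative fit, with adjusted p from 7.2e-05 to 0.042. The rise of miR-181a-5p was kept without p140 replicate 3 but lost its call in the other 5 fits that left out a library (0.28 to 0.52, adjusted p 0.053 to 0.16). It was also lost with no count filter (0.19, adjusted p = 0.52), and turned to -1.11 (adjusted p = 0.13) when the DROSHA-independent list set the scale. miR-181a-3p lost its call in 6 fits, among them the same 5 leave-one-out fits, and turned to -1.02 on the list scale. On it miR-181a-2-3p (-2.28, adjusted p = 0.0070) and miR-181d-5p (-2.31, adjusted p = 0.031), not called otherwise, were called lower. That scale moved the median of all miRNAs from -0.11 to -1.63 and called 0 miRNAs higher and 170 lower, in place of 127 and 139. The p140 replicate 3 library of HCT116, with 7.05% of its reads from DROSHA-independent miRNAs against 18.9% and 21.04% in the other two, also had the least miR-181a-5p and the most miR-181b-5p of its group. Without it 191 miRNAs were called higher. Without full-length replicate 2 or 3, or p140 replicate 2, 76, 70 and 79 were. The part of these shares, and of the low epithelial markers, in the result was not tested.

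In HEK293E no member was called without the replicate block on the TMM scale. miR-181a-5p stood at 8357, 6998 and 8058 with full-length DROSHA and at 9924, 9407 and 9979 with p140. Its log2 fold change was 0.32 (SE 0.13, adjusted p = 0.0997). With the replicate number as a block it was 0.33 (adjusted p = 0.017), past the threshold, and it turned to -0.38 (adjusted p = 0.15) when scaled to the DROSHA-independent miRNAs. miR-181b-5p stood at 5294, 5296 and 5777 and at 5967, 5869 and 6635, a log2 fold change of 0.17 (SE 0.13, adjusted p = 0.38, approximate 95% interval -0.08 to 0.43). None of the 6 members tested was called by edgeR, and none by DESeq2, while 1 of them (miR-181a-5p) had an unadjusted edgeR p of 0.031. The background was 5.29% of 416 miRNAs called higher (70 in place of 22 with the block) and 21.2% lower. For 4 of the 6 members the groups did not overlap, against 42.3% of all miRNAs. miR-181c-3p, with 3 to 14 reads a library, was filtered out. miR-181a-2-3p was at -0.68 (SE 0.33, adjusted p = 0.17; -1.39, adjusted p = 0.0077, on the list scale), miR-181a-3p at 0.25, miR-181d-5p at -0.15 (-0.84, adjusted p = 0.027, on the list scale) and miR-181c-5p at 0.01, its sign changing between fits. The median was 0.09 over the members and -0.04 over all miRNAs.

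Whether p140 acted differently in the 2 lines was tested as an interaction over the 12 rescue libraries. For miR-181b-5p the effect in HEK293E exceeded that in HCT116 by 0.85 on the log2 scale (SE 0.21, adjusted p = 0.039), and it was the 1 member called of 7 tested, against a background of 2.14% of 515 miRNAs called higher and 1.17% lower. This call was lost in 8 of 12 fits that left out a library (0.81 to 0.90, adjusted p 0.069 to 0.17), with total counts in place of TMM (0.73, adjusted p = 0.094), with no count filter (1.09, adjusted p = 0.050) and when scaled to the DROSHA-independent miRNAs (1.68, adjusted p = 0.34). With the replicate block its adjusted p was 3.8e-04. The libraries concerned were each HCT116 full-length replicate, p140 replicates 1 and 2 of HCT116 and the 3 p140 replicates of HEK293E. Without p140 replicate 3 of HCT116, the interaction called 28 miRNAs higher and 57 lower in place of 11 and 6, and with the replicate block 40 and 62. For miR-181a-5p the difference was -0.23 (SE 0.22, adjusted p = 0.64), so a difference between lines was not shown.

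Low serum also split the family. In wild-type HCT116 cells miR-181a-5p and miR-181c-5p rose in 0.1% FBS, whereas miR-181b-5p and miR-181d-5p, from the neighbouring hairpins, were not called. Reads of miR-181a-5p and miR-181b-5p cannot be assigned to a locus, so the split of that pair was not located. miR-181a-5p stood at 3284, 3306 and 3309 TMM-scaled CPM in 9.1% FBS and at 7219, 7038 and 6586 in 0.1% FBS. It rose by 1.07 on the log2 scale (SE 0.09, adjusted p = 1.0e-04 by edgeR over 577 miRNAs), 2.11-fold. miR-181c-5p stood at 45.2, 62.0 and 72.9 and at 118, 114 and 135, and it rose by 1.03 (SE 0.19, adjusted p = 0.0028). For both, each library in 0.1% FBS lay above each in 9.1% FBS. Both 3p strands of miR-181a rose too, miR-181a-3p by 0.89 (SE 0.13, adjusted p = 9.4e-04) and miR-181a-2-3p, from the other locus, by 0.78 (SE 0.17, adjusted p = 0.0064).

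miR-181b-5p stood at 1435, 1487 and 1523 in 9.1% FBS and at 1584, 1649 and 1479 in 0.1% FBS, a log2 fold change of 0.08 (SE 0.10, adjusted p = 0.53, approximate 95% interval -0.11 to 0.28). Its groups overlapped. miR-181d-5p stood at 25.8, 25.3 and 40.5 and at 29.8, 24.2 and 34.6, a log2 fold change of -0.05 (SE 0.25, adjusted p = 0.89, interval -0.53 to 0.44). miR-181c-3p was at 0.43 (SE 0.29, adjusted p = 0.27) on 9 to 18 reads a library. Thus 4 of 7 members were called higher, against a background of 25.5%, and 0 lower, against 20.3%. The groups did not overlap for 4 of 7, against 54.9% of all miRNAs. The median was 0.78 over the members and -0.03 over all miRNAs.

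The scale set the level of these values but not their spacing. With total counts in place of TMM the median of all miRNAs moved from -0.03 to -0.44, with 73 miRNAs called higher and 248 lower in place of 147 and 117. On that scale miR-181a-5p stayed called, miR-181a-2-3p did not (0.37, adjusted p = 0.093), and miR-181b-5p turned to -0.32 (adjusted p = 0.021). Scaled to the DROSHA-independent list, whose share was 0.821% to 1.18% of reads in 9.1% FBS and 0.913% to 1.35% in 0.1% FBS, the median was -0.67 and none of the 4 calls was kept. miR-181a-5p was at 0.43 (adjusted p = 0.12), miR-181c-5p at 0.37 (adjusted p = 0.38), miR-181a-3p at 0.26 (adjusted p = 0.38), miR-181a-2-3p at 0.14 (adjusted p = 0.63). miR-181b-5p, not among those 4, was at -0.57 (adjusted p = 0.056). The call of miR-181a-2-3p was also lost when all 18 replicated libraries were fitted together (0.60, adjusted p = 0.11). On the TMM scale the 4 calls were kept in each fit that left out a library. Of the epithelial and intestinal markers, 7 of 7 tested also rose in 0.1% FBS, with a median of 0.70, as did 2 of 3 blood markers tested, and their part in the result was not tested.

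**Figure D3:**
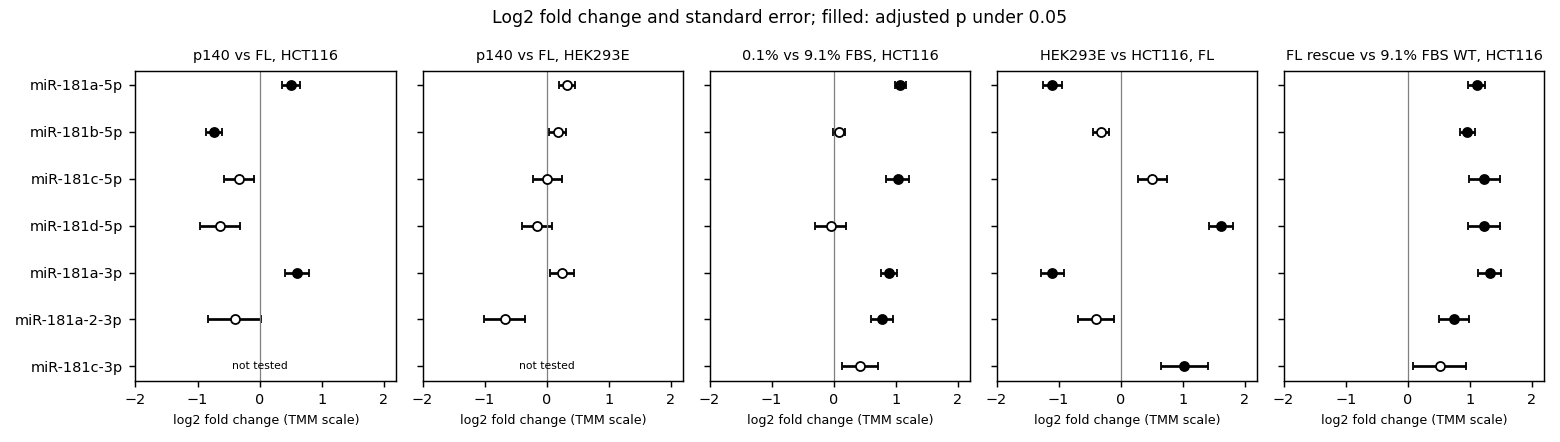
Log2 fold change on the TMM scale (horizontal axis) with its standard error for each member (vertical axis) in 5 comparisons; filled points have an adjusted p under 0.05. With p140 in HCT116 miR-181a-5p (0.51) and miR-181b-5p (-0.73) lie on opposite sides of 0, and in 0.1% FBS miR-181a-5p (1.07) and miR-181c-5p (1.03) lie apart from miR-181b-5p (0.08) and miR-181d-5p (-0.05).

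Ratios within a library carry no scaling and show the split directly. The 3 ratios between members were chosen after the values above were seen. miR-181a-5p outnumbered miR-181b-5p 2.62, 2.60 and 2.17 times in HCT116 with full-length DROSHA and 6.495, 6.88 and 4.37 times with p140. In log2 the ratio was 1.29 ± 0.15 (SD, n = 3) and 2.54 ± 0.36. In 9.1% FBS it was 2.29, 2.22 and 2.17 times, and in 0.1% FBS 4.56, 4.27 and 4.45 times, or 1.16 ± 0.04 and 2.15 ± 0.05 in log2. Both pairs of groups were separate. Untreated wild type, at 3.51 times, lay between the serum groups, and the GFP knockout library was at 2.63. In HEK293E the ratio was 1.58, 1.32 and 1.39 times with full-length DROSHA and 1.66, 1.60 and 1.504 times with p140, which overlapped. With 3 libraries against 3 an exact two-sided permutation test cannot go below p = 0.1, which both separate pairs reached (0.227 adjusted over the 25 unpaired ratio comparisons made). Of those 25 comparisons, 11 had groups without overlap. Within same-numbered pairs of libraries the ratio was higher with p140 in 3 of 3 pairs in HCT116, by 1.24 ± 0.21 in log2, and in 3 of 3 in HEK293E, by 0.15 ± 0.11. It was higher in 0.1% FBS in 3 of 3 pairs, by 0.99 ± 0.05 (SD of the pairs' differences, also above). An exact paired permutation test of 3 pairs cannot go below p = 0.25, which each of these comparisons reached.

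The ratio of miR-181c-5p to miR-181d-5p was 1.75, 2.44 and 1.80 in 9.1% FBS and 3.92, 4.69 and 3.89 in 0.1% FBS, again separate (exact permutation p = 0.1, adjusted 0.227), and in log2 it was 0.98 ± 0.27 and 2.05 ± 0.15. With p140 it did not separate, at 0.94 ± 0.53 and 1.28 ± 0.36 in HCT116 (exact permutation p = 0.5) and -0.14 ± 0.20 and 0.05 ± 0.15 in HEK293E (exact permutation p = 0.3). Among pairs of miRNAs from neighbouring hairpins on 1 strand (within 10000 bases), the difference in serum response ranked 9 of 191 for miR-181a-5p with miR-181b-5p and 7 of 191 for miR-181c-5p with miR-181d-5p, where the median pair differed by 0.23. With p140 in HCT116, the first ranked 26 of 104 with a median pair at 0.72, and the second 78 of 104. These ranks are a description, and that of miR-181a-5p with miR-181b-5p cannot be assigned to a locus.

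The 3p strands allowed the chromosome 1 and 9 copies of miR-181a to be told apart. The ratio of miR-181a-3p (chromosome 1) to miR-181a-2-3p (chromosome 9) separated the DROSHA forms in both lines, with the p140 libraries above the full-length ones. In log2 it was 2.80 ± 0.32 and 3.87 ± 0.67 in HCT116, and 2.09 ± 0.17 and 2.96 ± 0.15 in HEK293E (exact permutation p = 0.1 each, adjusted 0.227). It rests on 6 to 50 reads of miR-181a-2-3p a library in HCT116 and 7 to 26 in HEK293E. Serum left it at 2.22 ± 0.08 and 2.33 ± 0.25 (exact permutation p = 0.5). The separation was not particular to p140. With full-length DROSHA the ratio also separated HCT116 (2.80) from HEK293E (2.09), and the HCT116 rescue (2.80) from wild type in 9.1% FBS (2.22). The 5p to 3p ratio of miR-181a, which sums both loci on the 5p side, did not separate with p140 or serum. It was 24.6 ± 2.41 and 22.99 ± 0.928 in HCT116, 24.5 ± 2.81 and 25.8 ± 2.54 in HEK293E, and 28.4 ± 1.33 and 32.5 ± 4.54 in 9.1% and 0.1% FBS. That of miR-181c was separate between serum doses, at 3.398 ± 0.38 and 4.003 ± 0.14 in log2 (exact permutation p = 0.1, adjusted 0.227), on 9 to 18 reads of miR-181c-3p.

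**Figure D4:**
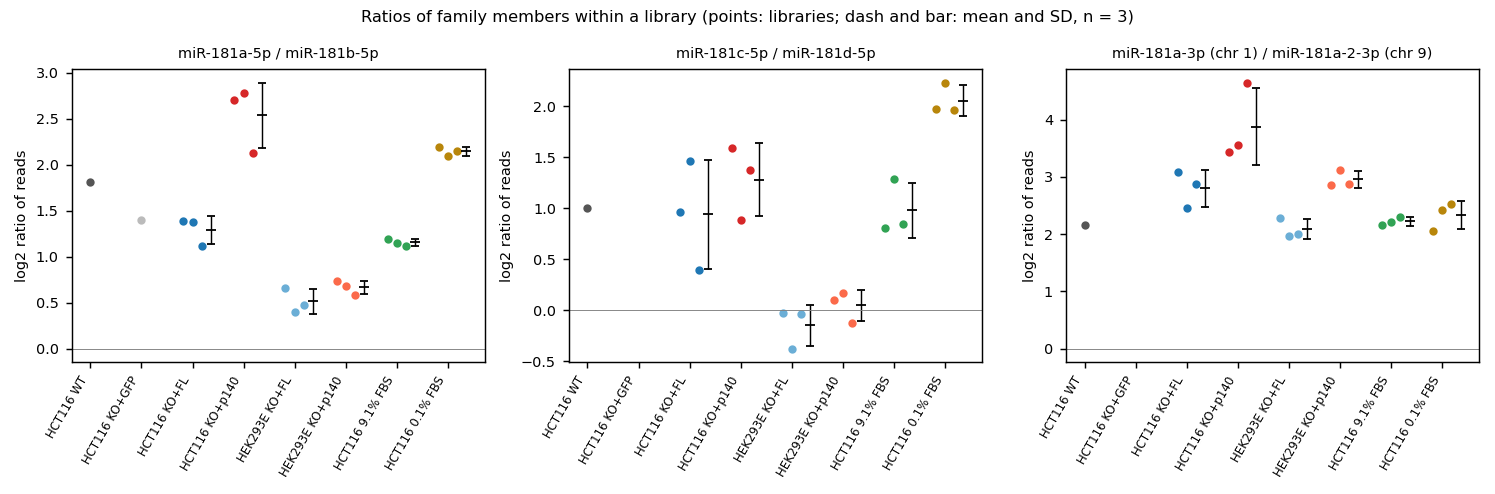
Log2 ratios of reads (vertical axes) within each library for 3 pairs of members across the groups (horizontal axis); points are libraries, the dash and bar the mean and SD of 3, and the GFP knockout library is shown only where both members had reads. The first ratio rises from 1.29 to 2.54 with p140 in HCT116 and from 1.16 to 2.15 in 0.1% FBS, the second separates with serum, and the third is higher with p140 in both lines.

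The reads of miR-181b-5p also differed by copy. The tables list it at both loci, and the chromosome 9 row, which was kept, exceeded the chromosome 1 row 1.09 to 1.15 times in the HCT116 rescue and serum libraries, 1.22 times in untreated wild type, 1.21 to 1.25 times in the full-length HEK293E libraries and 1.25 to 1.29 times in those with p140. The rows of miR-181a-5p differed by at most 1.001 times. The rule by which reads of identical mature sequences were assigned is not given in the sources used here, so these ratios are no measure of output per locus.

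Between the lines, both with full-length DROSHA, the family was composed differently. miR-181d-5p was 3.06-fold higher in HEK293E on the TMM scale (log2 1.61, SE 0.19, adjusted p = 5.9e-05), at 121, 106 and 133 in HCT116 and at 362, 370.2 and 369.7 in HEK293E. miR-181a-5p and miR-181a-3p were lower in HEK293E, each by 1.10 (SE 0.15 and 0.19, adjusted p = 1.6e-04 and 6.8e-04), but both stood at -0.04 with total counts. miR-181b-5p was at -0.31 (adjusted p = 0.056), was called at -0.37 (adjusted p = 0.030) with the mean of its 2 rows and at -0.43 (adjusted p = 0.024) without full-length replicate 3 of HCT116, and turned to 0.75 (adjusted p = 4.4e-04) with total counts, a scale on which the median of all miRNAs moved from 0.05 to 1.11 and 315 miRNAs were called higher and 76 lower in place of 174 and 157. miR-181c-5p was at 0.51 (SE 0.23, adjusted p = 0.080), and was called with total counts (1.57) and without full-length replicate 2 of HEK293E (0.67, adjusted p = 0.049). miR-181a-2-3p was at -0.40 (adjusted p = 0.24). miR-181c-3p was called higher (1.03, SE 0.39, adjusted p = 0.041), and lost the call in 10 fits, among them all 6 that left out a library. Of 7 members 2 were called higher, against a background of 33.7%, and 2 lower, against 30.4%. The groups did not overlap for 5 of 7, against 70.8%. The log2 ratio of miR-181a-5p to miR-181b-5p, which has no scale, was 1.29 ± 0.15 in HCT116 and 0.51 ± 0.13 in HEK293E, without overlap. The 6 strands of miR-23a, miR-27a and miR-24-2, whose hairpins lie 38039 to 38339 bases from MIR181C, were all lower in HEK293E (median -3.52), opposite to miR-181d-5p.

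Full-length rescue of the knockout was set against wild type in 9.1% FBS. The labels give no serum dose or time for the rescued cells, so knockout clone, rescue and culture cannot be told apart. On the TMM scale 6 of 7 members were called higher in the rescue, against a background of 28.8%, and 0 lower, against 29.7%. The groups did not overlap for 6 of 7, against 65.4%. miR-181a-5p was higher by 1.11 (SE 0.14, adjusted p = 9.8e-05), miR-181b-5p by 0.96 (SE 0.12, adjusted p = 1.1e-04), miR-181c-5p by 1.23 and miR-181d-5p by 1.23 (SE 0.25 each, adjusted p = 0.0018 and 0.0020). The ratio of miR-181a-5p to miR-181b-5p overlapped between these groups. miR-181a-3p (1.32) and miR-181a-2-3p (0.75) were also called, and miR-181c-3p (0.52, adjusted p = 0.33) was not. The call of miR-181a-2-3p was lost in 6 fits. Among them were the 4 that left out replicate 1 or 2 of either group (0.53 to 0.75, adjusted p 0.053 to 0.14). On the DROSHA-independent scale, which moved the median from -0.05 to -2.03 and called 18 miRNAs higher and 441 lower in place of 163 and 168, all 7 turned negative, miR-181a-5p to -0.92 (adjusted p = 0.015) and miR-181b-5p to -1.03 (adjusted p = 0.015). Of the epithelial markers 5 of 7 tested were lower in the rescue and 1 higher (median -7.16), and their part in the result was not tested. This comparison, that between the lines and that of p140 in HCT116 share the full-length HCT116 libraries, and that of serum shares the 9.1% FBS libraries, so their calls are given side by side only.

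Over the 8 group means, the miRNAs most like miR-181a-5p among 362 with a mean of at least 50 CPM were miR-126-3p (Pearson's r of log2 CPM 0.97), miR-183-5p (0.96), miR-126-5p (0.96), miR-26a-5p (0.96) and miR-103a-3p (0.95). miR-181a-3p reached 0.99, miR-181c-5p 0.92, miR-181b-5p 0.85 and miR-181d-5p 0.85. These are descriptions over 8 groups that share the low GFP knockout library.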

How the data were processed

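Small RNA of 20 libraries was counted per mature miRNA. TRIzol RNA with added spike-ins was size-selected, given randomized adaptors and read on a MiSeq, per the labels' protocols. The submitters' processing notes name cutadapt, STAR, bedtools and hg38. The treatment of multiply mapping reads and tool versions is not given in the sources used here. Values were deposited by the authors as raw counts, with 0 spike-in rows. For a name listed at several loci the row with the highest total was kept. All members are named, and the lists and members were chosen with earlier results of these data known. edgeR 4.0.16 (quasi-likelihood F test, TMM, filterByExpr with a minimum count of 10, Benjamini-Hochberg, threshold 0.05, two-sided) gave fold changes, with R 4.3.3. DESeq2 1.42.0 was an alternative. The test was checked on simulated data. Ratios add 0.5 reads to each count. Other named miRNAs are the other strands of the 6 hairpins, the 5 most like miR-181a-5p, and the most abundant of each list. Same-numbered libraries deviated together. Their correlations were 0.36 to 0.68 for p140 in HCT116 and 0.35 to 0.56 in HEK293E. They were 0.15 to 0.67 for serum and 0.15 to 0.37 for rescue against wild type. In HEK293E each exceeded those of differently numbered libraries. In serum, replicates 1 and 2 correlated as much across numbers (0.48 and 0.26), as did 1 differently numbered pair of p140 in HCT116 (0.37). There the numbers set replicate 3 apart and do not settle how replicates 1 and 2 pair. The main fits left the replicate number out. Depth was 38288 to 2822317 reads.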

Additional observations from a re-analysis of the deposited data

Results flagged for a closer look

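miR-181b-5p was picked out because the effect of p140 differed between the 2 lines by a test of the difference itself. The effect in HEK293E exceeded that in HCT116 by 0.85 on the log2 scale (adjusted p = 0.039, edgeR's quasi-likelihood F test over 515 miRNAs). On the TMM scale of this test over all 12 libraries, the 3 p140 libraries of HCT116 (2725, 2733 and 3408) lay below the 3 full-length ones (4740, 4928 and 4309.6). In HEK293E the p140 libraries (4294, 4153 and 4836) overlapped the full-length ones (3681, 3728 and 4194). Adjusted p ranged from 3.8e-04 to 0.34 over the alternatives.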

How the results depend on the processing

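Over the alternatives, the fall of miR-181b-5p with p140 in HCT116 and the excess of miR-181d-5p in HEK293E kept their direction and their call in each fit run. Scaling moved the most. When the DROSHA-independent list set the scale, p140 in HCT116 called 0 miRNAs higher, with miR-181a-5p at -1.11 and miR-181a-3p at -1.02. In HEK293E it called 4 higher and 212 lower, with miR-181a-5p at -0.38, miR-181a-3p at -0.48, miR-181b-5p at -0.54 and miR-181c-5p at -0.69. In serum it called 22 and 241, with miR-181b-5p at -0.57 and miR-181c-3p at -0.20. For the difference between lines it called 0 and 0 (edgeR, in place of 11 and 6), with miR-181a-5p at 0.73, miR-181a-3p at 0.55, miR-181a-2-3p at 0.89 and miR-181c-3p at 0.51. Between the lines it called 107 higher. For rescue against wild type it called 18 and 441, with miR-181a-5p at -0.92, miR-181a-3p at -0.70, miR-181a-2-3p at -1.28, miR-181b-5p at -1.03, miR-181c-5p at -0.85, miR-181c-3p at -1.54 and miR-181d-5p at -0.76. The knockout folds of miR-181a-5p and miR-181b-5p became 295 and 226.5.

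With total counts in place of TMM, serum called 73 and 248, with miR-181b-5p at -0.32. The difference between lines called 6 higher. HEK293E against HCT116 called 315 and 76, with miR-181a-2-3p at 0.67 and miR-181b-5p at 0.75. miR-181c-5p stood at -0.066 with p140 in HEK293E. With no count filter, that value was -0.023, miR-181a-5p stood at 0.024 for the difference between lines, and rescue against wild type called 277 lower. All 18 replicated libraries in 1 fit called 78 higher in serum, with miR-181b-5p at -0.10, and 18 higher for the difference between lines. With the replicate block, p140 in HEK293E called 70 higher, with miR-181c-5p at -0.0015, and the difference between lines called 40 higher and 62 lower. Beyond miR-181a-5p in HEK293E, the block changed no call of a member where same-numbered libraries deviated together. Between the lines they did not (correlation -0.15 to 0.19), and there miR-181c-3p had an adjusted p of 0.062 with the block.

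Leaving out 1 library gave 70 to 191 miRNAs called higher with p140 in HCT116 and 10 to 36 in HEK293E, and 3 to 28 higher and 2 to 57 lower for the difference between lines. In HEK293E miR-181c-5p ranged from -0.13 to 0.17 and miR-181d-5p from -0.31 to 0.050. In serum miR-181d-5p ranged from -0.22 to 0.21, and for the difference between lines miR-181a-5p from -0.30 to 0.011. The causes were not tested. Depth limits miR-181c-3p, at 3 to 18 reads in the replicated libraries, and the knockout library, at 48 reads of the 5p members.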
